A study of Mus musculus with 8 samples.

Results

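Cldn5, Esam, Cdh5 and Pecam1 encode 4 proteins of the contacts between endothelial cells, and transcripts of all 4 were lower in liver macrophage preparations from mice on a western diet. They were selected by gene symbol from the list of diet-regulated genes that the study's authors deposited. These 4 genes were chosen from rows already filtered on their own fold change and p-value, so their fold changes are a description and support nothing by themselves. They are 4 of 2386 listed genes, and every one of the 4 has a row. The study sequenced RNA of liver macrophages from C57BL/6 mice, a common inbred strain, in 4 libraries from mice fed a normal diet (ND) and 4 from mice fed a western diet (WD). The series design states 4 mice a group. No genotype, agent or transgene is named for either group, and age, diet composition, feeding time and the way macrophages were isolated are not stated in the labels. The table writes its contrast as WDV against NDV, with the V unexplained, and both were read as the WD and ND groups, an assumption behind every value here.

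Endothelial cells are held together by adherens junctions, in which VE-cadherin binds its like on the next cell and is anchored to catenins and actin, and by tight junctions, which seal the gap. Around both lies a lateral border where PECAM-1 molecules bind one another and guide leukocytes across the vessel wall. Liver sinusoids are an unusual bed: their endothelium is fenestrated and lacks a continuous basement membrane, and Kupffer cells, the resident macrophages, sit on it inside the vessel. Cldn5 encodes claudin-5, the main sealing protein of endothelial tight junctions. Esam encodes an immunoglobulin-like adhesion molecule found at endothelial tight junctions and on platelets. Cdh5 encodes VE-cadherin, and Kupffer cells also carry its transcript. Pecam1 encodes PECAM-1 (CD31), which platelets and many leukocytes carry as well.

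The region just before the Cldn5 start is shown because Cldn5 is the 1 gene of the 4 with a promoter in the reference used here. It is the RefSeq sequence for build GRCm38.p6 (the same chromosome sequence as mm10), plus strand, chr16:18776597-18776846, 250 bases that end 1 base before the annotated start. Capitals mark matches, on the opposite strand, to GGGCGG (the Sp1 box) and to CCAAT (the NF-Y box).
Cldn5: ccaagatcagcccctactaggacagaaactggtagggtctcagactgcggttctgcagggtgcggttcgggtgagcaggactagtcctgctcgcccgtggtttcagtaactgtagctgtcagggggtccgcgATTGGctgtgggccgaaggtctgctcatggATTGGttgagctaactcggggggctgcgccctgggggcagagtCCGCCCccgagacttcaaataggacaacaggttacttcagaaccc

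The GGGCGG match begins 45 bases before the start and runs to base -40, and 32.7% of 32851 RefSeq promoter windows of the same length hold that motif on either strand. The 2 CCAAT matches begin at -118 and -88, and 33.8% of the windows hold at least 1; this motif was searched after the sequence had been read. Neither GGAA nor AGGAAG, the ETS family cores, was found on either strand of the Cldn5 window, whereas 93.4% and 29.5% of all windows hold them. AGGAAG contains GGAA, so its absence follows from that of GGAA. Other motifs searched on both strands were ACAAT of the SOX family, GATAA of the factors of that name, TATAAA of core promoters and CANNTG, the E-box. None of these 4 was found, against 27.7%, 22.6%, 12.4% and 66.2% of all windows. G and C made up 59.6% of the Cldn5 window, and the median window had 52.4%. These are letter matches in 1 short window and say nothing about which factors bind there.

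All values of expression come from 1 deposited row per gene. A row gives the mean normalized count over the libraries, the log2 fold change of WD over ND, its standard error (SE), the p-value and the Benjamini-Hochberg adjusted p-value, over 17531 tested genes as recovered from the adjusted values. Values of single libraries and total counts were not analysed here, so depth per library is unknown and no range over libraries can be given. A gene was called at an adjusted p below 0.05, and every listed gene also differed by more than 2-fold. Called genes made up 8.35% of tested genes in the lower direction and 3.0% in the higher direction. All 4 junction genes were called lower, which nothing can be read from, since the same contrast placed them in the table.

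Claudin-5 transcripts fell furthest. Cldn5 (ENSMUSG00000041378, chromosome 16, 18776847 to 18778262 of mm10, plus strand, a single exon) had a mean normalized count of 774 and a log2 fold change of -4.12 ± 0.20 (SE) in the authors' deposited table, with an adjusted p of 9.90e-94. This is a 17.4-fold fall, with a 95% interval of 13.3-fold to 22.7-fold from the deposited SE. Its p-value in the authors' deposited table ranked 2 of 2386. Of the 1680 listed genes with a negative fold change, 42 had a larger fall. The WD level was 5.75% of the ND level.

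Esam, the second tight junction member, came next. Esam (ENSMUSG00000001946, chromosome 9, 37528078 to 37538319, plus strand, up to 7 exons in a transcript) stood at -3.16 ± 0.22 with a mean normalized count of 1296 in the authors' deposited table (adjusted p 2.54e-42). It fell 8.92-fold, with an interval of 6.57-fold to 12.1-fold, and 11.2% of the ND level was left. A larger fall was listed for 268 of the 1680 genes.

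The adherens junction member had a smaller fall. Cdh5 (ENSMUSG00000031871, chromosome 8, 104101625 to 104144511, plus strand, up to 12 exons) had a mean normalized count of 2934 and a log2 fold change of -1.68 ± 0.27 in the authors' deposited table (adjusted p 6.64e-09). The fall was 3.21-fold, with the widest interval of the 4 on the log2 scale, from 2.23-fold to 4.62-fold. The WD level was 31.2% of the ND level, and 1117 of the 1680 genes fell further.

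Pecam1, of the lateral border, lay beside Cdh5. Pecam1 (ENSMUSG00000020717, chromosome 11, 106654217 to 106750628, minus strand, up to 16 exons) stood at -1.71 ± 0.20 with a mean normalized count of 2543 in the authors' deposited table (adjusted p 8.36e-16). It fell 3.28-fold, with an interval of 2.49-fold to 4.32-fold, and 30.5% of the ND level was left.

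**Figure D1:**
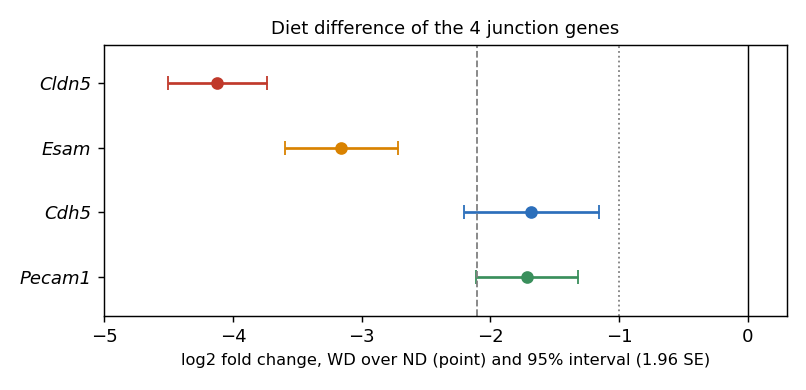
Log2 fold change of WD over ND for each gene (x axis; points, the deposited value; bars, 95% interval from the deposited SE). The dashed line is the median of all called lower genes, -2.10, and the dotted line the 2-fold limit of the table: Cldn5 and Esam lie left of the dashed line with their whole intervals, and the intervals of Cdh5 and Pecam1 reach it.

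The 4 genes thus spread over a wide range of falls, in 3 steps. The 95% intervals of Cldn5 and Esam overlapped neither each other nor those of Cdh5 and Pecam1, while the last 2 overlapped. Cldn5 differed from Cdh5 by -2.44 and from Pecam1 by -2.41 in log2 fold change, Cldn5 from Esam by -0.96, and Cdh5 from Pecam1 by 0.03. No error of these differences was computed, because the genes share their libraries and their covariance is not in the table. The median log2 fold change of all called lower genes was -2.10, so Cldn5 and Esam fell by more than the median gene and Cdh5 and Pecam1 by less.

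Group levels can be derived from a mean count and a fold change when both groups hold 4 libraries. The implied ND and WD means were 1464 and 84.2 normalized counts for Cldn5. For Esam they were 2331 and 261. Pecam1 had implied means of 3897 and 1188, and Cdh5 of 4472 and 1395. These are computed means with no error of their own. The Cldn5 mean in WD was the lowest of the 8 values.

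Per kilobase of annotated exon, the scale on which genes can be compared, the order of the 4 changed with diet. In ND the implied level was 1064 normalized counts per kb for Cdh5, 1034 for Cldn5, 813 for Esam and 626 for Pecam1. Cdh5 and Cldn5 differed 1.03-fold there, less than the spread between libraries given below. In WD the implied level per kb was 332 for Cdh5, 191 for Pecam1, 91.1 for Esam and 59.5 for Cldn5. Cldn5 therefore moved from near the top of the 4 to the bottom, and the Cdh5 level per kb went from 1.03 to 5.58 times that of Cldn5. The ratio of Pecam1 to Cdh5 per kb was 0.588 in ND and 0.575 in WD. Exon lengths were 1416 bases for Cldn5, 2867 for Esam, 4203 for Cdh5 and 6228 for Pecam1, as the union of all annotated transcripts, so the use of shorter transcripts would raise the true level per kb.

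**Figure D2:**
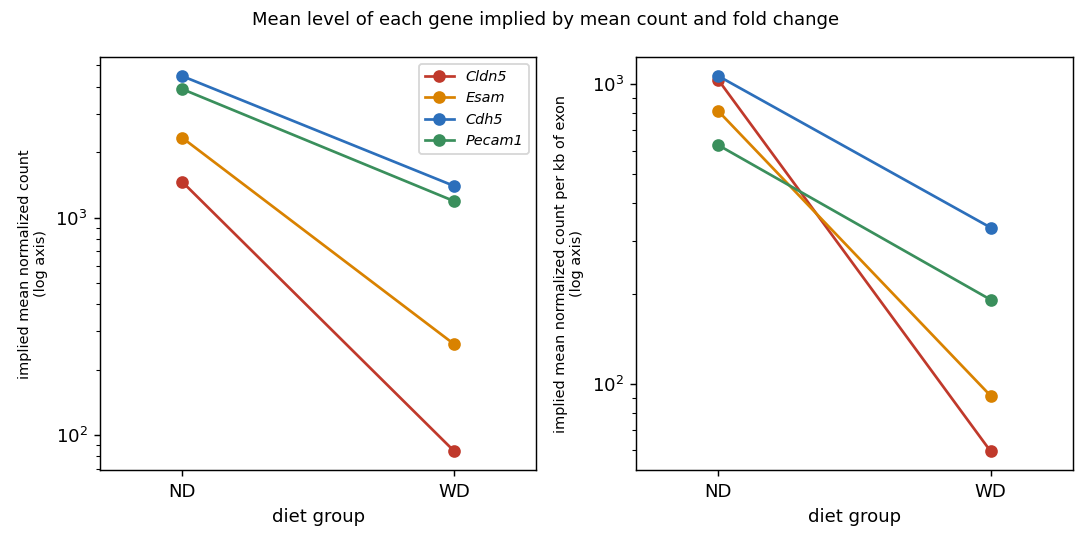
Implied mean level of each gene in ND and WD (x axis), as normalized counts (left, log axis) and as normalized counts per kb of exon (right, log axis); a line joins the 2 groups of a gene. On the right, Cldn5 starts at 1034, beside Cdh5 at 1064, and ends lowest at 59.5.

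The deposited SE also carries the spread between libraries. If library sizes were equal, the SE of Cldn5 implied a coefficient of variation of 17.5% between libraries of a group beyond counting error. The same figure was 21.5% for Esam, 19.7% for Pecam1 and 26.2% for Cdh5. The median over the 889 called lower genes with at least the median mean count (37.5) was 20.0%. How the deposited SE was estimated is not stated. If it was adjusted with values of other genes, these figures are not the spread of each gene alone. Counting error made up 16.9% of the squared SE of Cldn5 and at most 4.38% of that of the other 3 genes. For Cdh5 the wide interval and the large implied spread come from the same SE and are 1 observation.

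With no value per library, likeness to other genes was measured as the distance in log2 mean count and log2 fold change, among the listed protein-coding genes. The genes nearest to Esam were endothelial receptor genes: Robo4 at a distance of 0.054, Tie1 at 0.12 and Tek at 0.15. Their log2 fold changes were -3.10 ± 0.41, -3.08 ± 0.23 and -3.27 ± 0.42 in the authors' deposited table. Cldn5 had no neighbour as close, with Tpbgl at 0.25, Exoc3l2 at 0.36 and the transmembrane collagen gene Col13a1 at 0.44. Those nearest to Cdh5 were the spectrin gene Sptbn1 at 0.11, the haptoglobin gene Hp at 0.18 and the semaphorin receptor gene Plxnd1 at 0.20. Plxnc1, another plexin gene, lay at 0.15 from Pecam1, followed by Cdh5 at 0.21 and Plxnd1 at 0.25.

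**Figure D3:**
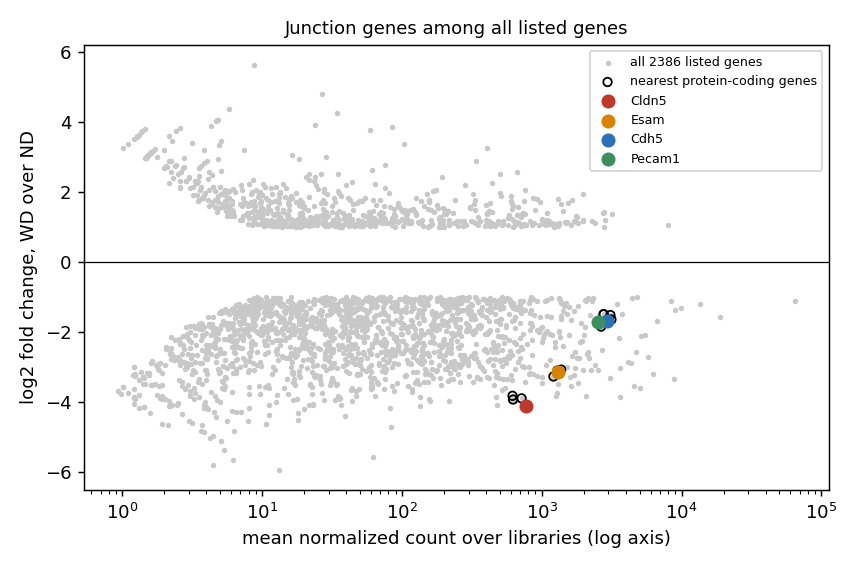
Mean normalized count (x axis, log) against log2 fold change (y axis) for the 2386 listed genes (grey), the 4 junction genes (coloured) and the nearest protein-coding genes of each (open circles). Cdh5 and Pecam1 lie together at means of 2934 and 2543, and Cldn5 lies lowest at a mean of 774.

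On the chromosomes, 2 of the 4 had a listed gene close by. Vsig2, an immunoglobulin-domain gene, starts 0.936 kb after the end of Esam on the same strand, and it stood at -3.29 ± 0.34 with a mean normalized count of 58.9 in the authors' deposited table (adjusted p 5.44e-21). Whether Esam reads ran on into Vsig2 was not tested. Robo4, nearest to Esam in level and fold change, lies 113 kb from it. Gm45663, with a mean normalized count of only 7.77, lies 8.20 kb from Cdh5 and had -1.49 ± 0.56 in the authors' deposited table (adjusted p 0.030). The listed genes closest to Cldn5 and Pecam1 were 283 kb (Iglc1, an immunoglobulin segment) and 221 kb (Gm11707) away. Icam2, which encodes another endothelial adhesion molecule, lies 266 kb from Pecam1 and stood at -1.65 ± 0.18 in the authors' deposited table (adjusted p 5.32e-19). In the annotation no exon of another gene overlapped an exon of the 4 genes, and Gm29682, an antisense gene that overlaps the Cdh5 span, is not in the table.

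Other genes of the same structures were mostly either lower or not listed. Of 84 further genes of tight junctions, adherens junctions and the endothelial surface, 25 fell (29.8%, against 8.35% of tested genes), 2 rose (2.4%, against 3.0%), 1 was listed without passing and 56 were not listed. The lists here and below were chosen with earlier results of these data known, and some have genes in common. These percentages are a description and not a test of enrichment. Of the 84 symbols, 82 are in the annotation used. Pals1, in the tight junction list, and Cd99, in the endothelial surface list, are not, so these 2 could not have been found under those symbols and are counted as not listed. Absence from the table does not show whether a gene failed its p limit, its fold limit or was never measured. The median log2 fold change of the 25 was -2.24 and their range -3.30 to -1.02. Cldn5 fell further than all 25 and Esam further than 21 of them, whereas 17 of the 25 fell further than Cdh5 and 16 further than Pecam1.

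In the tight junction list, with Cldn5 and Esam included, 9 of 42 genes fell (21.4%, against 8.35% of tested genes). Of the others, 2 rose (4.8%, against 3.0%) and 31 were not listed. Any of the 4 junction genes in this or a later list was lower by its selection and is counted there. Tjp1, which encodes the scaffold protein ZO-1 that binds claudins, stood at -2.52 ± 0.29 in the authors' deposited table (adjusted p 1.19e-16). Mpdz, a scaffold gene with many PDZ domains, had -2.49 ± 0.21 in the authors' deposited table. Among junctional adhesion molecule genes, relatives of Esam, Jam2 had -2.10 ± 0.23 at a mean normalized count of 1180 and Jam3 -3.18 ± 0.54 at 16.4 in the authors' deposited table. F11r, which encodes JAM-A, was not listed. Jaml, a junction adhesion molecule-like gene of leukocytes that was in none of the lists, rose at 1.41 ± 0.25 and a mean normalized count of 103 in the authors' deposited table (adjusted p 4.14e-07).

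Of 33 annotated claudin genes 4 were listed: Cldn5, Cldn12 and Cldn34c1 as lower and Cldn1 as higher. Counts of 3 lower and 1 higher of 33 are close to the shares over all tested genes, 8.35% and 3.0%. They show nothing about claudins as a family. Cldn12 (-1.57 ± 0.31) and Cldn34c1 (-1.47 ± 0.40) fell in the authors' deposited table at mean normalized counts of 50.8 and 17.6. Cldn34c1 belongs to a group of similar gene copies, among which reads may be shared, so its value is uncertain. Cldn1, the claudin of epithelia including hepatocytes, rose at 1.25 ± 0.31 and a mean normalized count of 38.6 in the authors' deposited table (adjusted p 0.000439). Igsf5, another tight junction gene, rose at 1.82 ± 0.62 with a mean normalized count of only 7.31 in the authors' deposited table (adjusted p 0.0142). Clmp, of an adhesion molecule related to the JAM proteins, stood at -1.43 ± 0.44 in the authors' deposited table. In the same comparison 3 of 20 hepatocyte and bile duct markers rose (15.0%, against 3.0% of tested genes), none fell and 16 were not listed. The summed implied level of the 4 that were listed was 700 in ND and 1705 in WD. All 4 had positive fold changes above the limit of the table, so that direction was fixed beforehand. The part of hepatocytes and bile duct cells in the Cldn1 difference was not tested.

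The adherens junction list had 9 of 26 genes lower (34.6%, against 8.35% of tested genes), Cdh5 included, none higher and 17 not listed. Ptprb, which encodes the phosphatase VE-PTP that associates with VE-cadherin, fell 9.28-fold (-3.21 ± 0.42) in the authors' deposited table, against 3.21-fold for Cdh5. Other cadherin genes fell too: Cdh13 had -2.34 ± 0.25, Cdh4 -3.0 ± 0.34 and Cdh2, N-cadherin, -1.20 ± 0.45 in the authors' deposited table, at mean normalized counts of 224, 85.1 and 23.4. Cdh17, at a mean normalized count of 5.05, was the one higher gene of 5 listed Cdh genes (2.60 ± 0.85, adjusted p 0.0102, in the authors' deposited table). Cdh17 was not among the 26 genes of the list. Both listed nectin genes fell, with Nectin2 at -1.71 ± 0.20 and Nectin3 at -2.47 ± 0.36 in the authors' deposited table. The catenin-related genes Arvcf (-1.91 ± 0.37) and Ctnnal1 (-1.88 ± 0.30) fell in the authors' deposited table, while Ctnnb1, Ctnna1, Ctnnd1 and Jup, the catenins that tie cadherins to actin or keep them at the membrane, were not listed.

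Of 20 endothelial surface and leukocyte passage genes, none rose, 1 did not pass and 8 were not listed. The other 11, Pecam1 included, fell (55.0%, against 8.35% of tested genes). By the smallest p these were Tspan7 (-3.30 ± 0.22), the sialomucin gene Podxl (-3.19 ± 0.24), the tetraspanin gene Cd151 (-1.07 ± 0.10), Plvap, of the diaphragms of fenestrae (-2.24 ± 0.21), Icam2 and the sialomucin gene Emcn (-2.77 ± 0.31), in the authors' deposited table. In fold change Pecam1 lay nearest to Icam2 among the genes of this list. The P-selectin gene Selp stood at -1.02 ± 0.30 in the authors' deposited table (adjusted p 0.00431), and the E-selectin gene Sele did not pass at -1.06 ± 0.44 (adjusted p 0.0568). Icam1 and Vcam1, the cytokine-induced leukocyte ligands, were not listed. Of 19 gap junction genes, 4 fell (21.1%, against 8.35% of tested genes), 1 rose (5.3%, against 3.0%) and 14 were not listed. Among these, Gja1 (-2.40 ± 0.24), Gja4 (-3.05 ± 0.49) and Gja5 (-1.63 ± 0.64) were lower and Gjb2 (1.52 ± 0.38) higher in the authors' deposited table, Gja5 at a mean normalized count of 8.85.

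Genes that signal to endothelial junctions were lower wherever they were listed. Of 46 such genes, 26 fell (56.5%, against 8.35% of tested genes), none rose and 20 were not listed. The median log2 fold change of the 26 was -2.63. The 6 with the smallest p were Cdc42ep1, an effector of the GTPase Cdc42 (-2.99 ± 0.20), the exchange factor gene Arhgef15 (-3.66 ± 0.26), Ccm2l (-3.34 ± 0.25), the angiopoietin pathway receptor gene Tie1, Rapgef3, of the cAMP-activated Rap1 exchange factor Epac1 (-2.84 ± 0.22), and Ramp2, of the adrenomedullin receptor (-3.35 ± 0.26), with values from the authors' deposited table. Of the 26 genes, 21 fell further than Cdh5 and none further than Cldn5.

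Of 36 genes of transcription factors active in endothelium, 18 fell (50.0%, against 8.35% of tested genes), none rose and 18 were not listed. Sox17 (-4.11 ± 0.25) had nearly the fold change of Cldn5 in the authors' deposited table. Elk3, an ETS family gene (-2.01 ± 0.11), the sinusoidal factor gene Gata4 (-3.33 ± 0.21), Epas1 (-2.27 ± 0.15), Meis2 (-3.44 ± 0.24) and Sox18 (-3.85 ± 0.32) completed the 6 with the smallest p in the authors' deposited table. Fli1, another ETS family gene of endothelium, was not listed.

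Markers of endothelial cells moved with the 4 genes, and in bulk RNA fewer cells of a type and less RNA per cell cannot be told apart. Of 20 sinusoidal endothelial markers 19 fell, none rose and Clec1b was not listed, with a median log2 fold change of -3.31 and a range from -3.85 to -1.12 among the 19. The summed implied level of these 19 genes was 132152 normalized counts in ND and 24434 in WD, a ratio of 5.41. Each of the 19 is listed as lower by more than 2-fold, so the direction of their sum was fixed beforehand. The most abundant markers weigh most in that ratio, so it is not set against the fall of a single gene. Cldn5 fell further than each of the 19 genes, Esam further than 8, Pecam1 further than 4 and Cdh5 further than 3. The 4 that fell less than Pecam1 were Mrc1 (-1.12), Fcgr2b (-1.38), Lyve1 (-1.49) and Stab1 (-1.68) in the authors' deposited table. Whether macrophages gave part of the RNA of these 4 was not tested. Of 20 markers of large vessels and lymphatics, 9 fell (45.0%, against 8.35% of tested genes). Thy1 rose, 1 did not pass and 9 were not listed. The summed implied level of the listed genes was 4053 in ND and 974 in WD. Each listed gene had passed the 2-fold limit of the table, so this sum too was shaped by that filter. What part the number of endothelial cells had in these differences was not tested.

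Marker lists of other cells, some of which carry Cdh5, Pecam1 or Esam, did not all move in 1 direction. The Kupffer cell list had 18 of 20 genes not listed, among them Adgre1, Clec4f, Timd4 and Vsig4, so the label of the samples could not be checked on those markers. Its 2 listed genes were Cdh5 itself, lower, and Il18bp, higher at 1.11 ± 0.18 in the authors' deposited table. Of 15 genes of leukocytes that carry Pecam1, 5 rose (33.3%, against 3.0% of tested genes), none fell and 10 were not listed. The summed implied level of the 5 was 2357 in ND and 7197 in WD. Each of the 5 is listed as higher by more than 2-fold, so the direction of their sum was fixed beforehand. Among the 5 were Plac8 (1.76 ± 0.18), Ccr2 (1.44 ± 0.20), Ace (1.20 ± 0.17) and Ly6c2 (2.55 ± 0.50) in the authors' deposited table. Of 15 platelet and megakaryocyte markers, 2 fell (13.3%, against 8.35% of tested genes): Gng11 and Itgb3, which endothelial cells also use. Tubb1 did not pass and 12 were not listed. The summed implied level of these 3 listed genes was 1068 in ND and 313 in WD. Dendritic cell markers split, with 4 of 15 higher (26.7%, against 3.0% of tested genes), 2 lower (13.3%, against 8.35%) and 9 not listed. The 4 higher genes were Ccr7 (1.80 ± 0.27), Cd209a (1.38 ± 0.23), Flt3 (1.38 ± 0.26) and Xcr1 (1.29 ± 0.36) in the authors' deposited table. The 2 lower genes were Dpp4 (-2.29 ± 0.27) and Zbtb46 (-1.13 ± 0.14) in the authors' deposited table. The summed implied level of the listed genes was 4726 in ND and 4158 in WD. Dpp4 alone had implied means of 3116 and 639, so the small change of the sum rests on that gene. Of 20 stellate and mural cell markers 9 fell (45.0%, against 8.35% of tested genes), none rose and 11 were not listed. The 9 listed genes had a summed implied level of 5049 in ND and 1415 in WD. The sum of the stellate and mural cell markers likewise had a fixed direction, and no sum covers a gene that was not listed. The part of these cells in the values of the 4 genes was not tested.

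**Figure D4:**
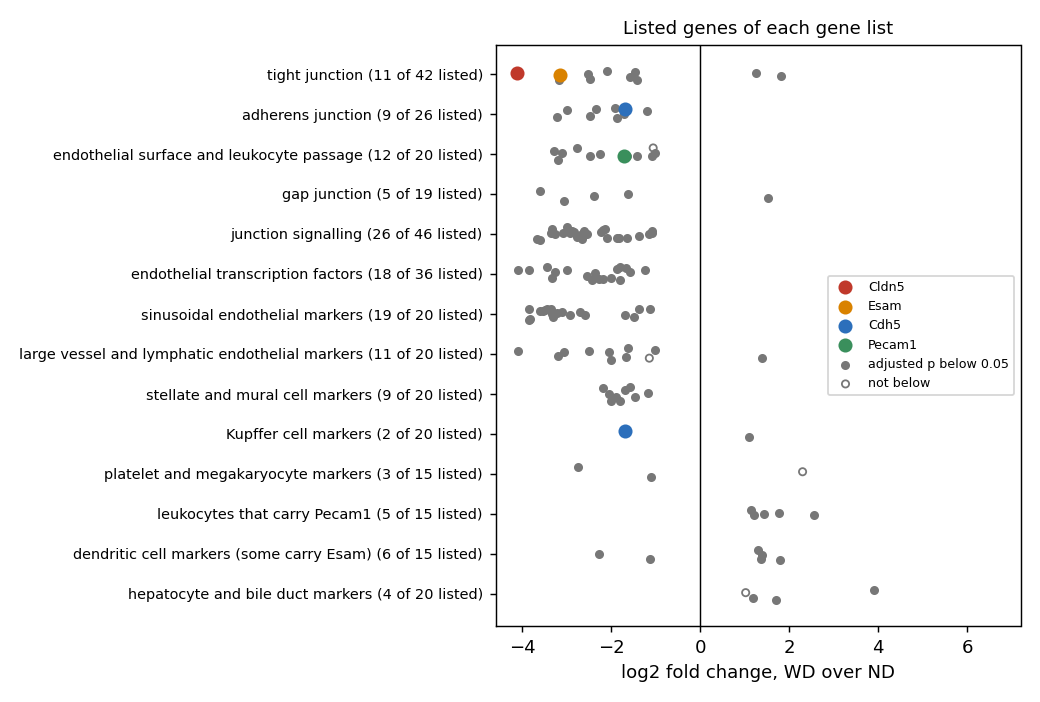
Log2 fold change of WD over ND (x axis) of each listed gene in 14 gene lists (rows, with how many of the list are in the table); filled points passed an adjusted p of 0.05, open points did not, and the 4 junction genes are coloured. In the 8 uppermost lists, points right of 0 are Cldn1, Igsf5, Gjb2 and Thy1, and the 5 listed genes of leukocytes that carry Pecam1 lie right of 0.

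Adhesion terms also appear among the rising genes of the authors' own enrichment, which covered genes with positive fold changes and so could hold none of the 4. The KEGG term for cell adhesion molecules held 18 genes (Benjamini p 9.13e-09 in the authors' deposited table), of which 17 had an adjusted p below 0.05. By the smallest p they were led by Cd86 (1.16 ± 0.12), the integrin gene Itga4, whose product binds VCAM-1 on endothelium (1.28 ± 0.15), and Siglec1 (1.15 ± 0.17) in the authors' deposited table. The term for leukocyte transendothelial migration held 5 rising genes, among them Itga4, Txk, Cldn1 and Thy1, and its Benjamini p was 0.243 in the authors' deposited table. These lists were picked by the authors on the same libraries and are not independent evidence of direction.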

How the data were processed

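RNA of liver macrophages was sequenced by the authors in 4 ND and 4 WD libraries, grouped here by the diet label. Per the submitters' processing notes, the build was mm10 and the tools named, with no role or version, are the aligners HISAT2 and STAR, then DESeq, edgeR, featureCounts, STAR-Fusion and StringTie. Per the file headers, the deposited columns are a mean normalized count (a signal averaged over libraries), a log2 fold change with its SE, a test score (fold change over SE; largest departure 7.1e-08), a p-value and an adjusted p-value. The deposited table holds only p-values below 0.05 (largest 0.04995) and absolute log2 fold changes above 1, and 77 genes had no adjusted p and were not called.

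No test was refitted. The number of tested genes was found as the whole number that made most ranks (p times that number over adjusted p) whole within 0.02, which held for 95.6% of ranks used. This step and the implied means were tested on simulated data. Implied means are 2m/(1 + fold) for ND, with m the mean count and fold WD over ND, and that times the fold for WD. The implied variation is the squared SE (natural log) times 4, less both inverse means, halved. Positions and exon lengths come from GENCODE release M21 (GRCm38, as mm10), which held all 2386 identifiers. Of the 4 genes, 1 had a RefSeq promoter in the reference used. Work used Python 3.11.15, pandas 2.3.3 and numpy 2.4.6.

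The 4 genes and the 14 lists were chosen with earlier results of these data known. Genes named are the 4, up to 8 called genes of a list or else the 6 with the smallest p, the 3 nearest in level and fold change, the nearest listed gene on the chromosome, and listed claudin, cadherin, JAM and nectin genes. Others were named after their values were seen: genes said not to be listed, Jaml, Mrc1, Lyve1, Stab1, Selp, Sele, Jam3, Clmp, Arvcf and Ctnnal1. The same holds for Robo4 and Icam2 as neighbours, and for the genes of the authors' terms. Alternatives were a stricter adjusted p, a 95% interval beyond 2-fold, Bonferroni adjustment and a minimum mean count of 10. Some genes that this rule would name are not reported here.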

Additional observations from a re-analysis of the deposited data

How the results depend on the processing

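All 4 junction genes stayed called lower at an adjusted p below 0.01, with Bonferroni adjustment over the 17531 tested genes, and when the whole 95% interval had to lie beyond 2-fold. Of the 84 further junction genes, 25 were called lower, and 24, 19 and 25 at an adjusted p below 0.01, with the interval beyond 2-fold, and with a mean count of at least 10. The 2 called higher (Cldn1 and Igsf5) became 1 at an adjusted p below 0.01, 0 with the interval beyond 2-fold and 1 with the mean count of at least 10. Over all genes, 1464 lower and 526 higher calls became 1293 and 386 at an adjusted p below 0.01, and 1240 and 457 with a mean count of at least 10. With the gene strand alone, 0 of the motifs first searched matched the Cldn5 window, against 1 on both strands. Leaving out a library, another normalization, another count model or a block could not be run, since the table has no value per library. Depth per library is unknown, and precision is known only through the deposited SE.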
